A study of Populus yunnanensis and Populus davidiana with 24 samples.

Results

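The 100 genes whose level varied least between libraries were described in stems of Populus davidiana and Populus yunnanensis, a pair of poplar species, over the first days after cuttings were made. They were chosen by a rule on the measured values. Of 43836 gene models, 5458 stood at 10 FPKM or more in all 24 libraries, and the 100 of these (1.83%) with the lowest standard deviation (SD) of log2(FPKM + 1) over the 24 libraries were taken as members. FPKM is the number of sequenced fragments of a gene scaled to its length and to the total of mapped fragments. As every library took part in the choice, the low spread of the members is not a finding, and their levels and differences are given as a description.

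Stems were taken from cuttings of annual branches, 15 cm long and freed of buds and leaves, at 0, 48, 96 and 120 h. With 3 libraries per species and time there were 8 groups, namely P. davidiana at 0, 48, 96 and 120 h and P. yunnanensis at the same times, and all groups share the cutting treatment and the removal of buds and leaves. The series title names rooting differences and the WOX family of homeobox genes. The origin of the replicates (separate plants or 1 plant) was not given in the sources used here. The p-values may therefore cover technical spread alone. The number of fragments per library is unknown. Ratios of low FPKM values gave a relative depth of mapped fragments, set against P. yunnanensis 96 h replicate 1. It ran from 0.620 to 0.829 times in P. davidiana and from 0.829 to 1.11 times in P. yunnanensis. Depth thus went with species, and its part in differences between the species was not tested. The table holds identifiers without gene names, so no member is given a name or role, the families usually used as reference genes (actin, tubulin, ubiquitin, elongation factor and others) could not be looked up, no sequence is shown, and the labelled tissue was not checked against stem markers.

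Genes that every living cell needs, such as those for making protein, moving cargo between compartments and turning over worn proteins, are commonly called housekeeping genes. Their transcripts tend to keep to a narrow range between tissues and conditions, and quantitative PCR measures other genes against them. Because a stem sample mixes cells of bark, phloem, cambium, wood and pith, a level measured in bulk is a mean over these cells, and a fall in the number of cells of a type cannot be told apart from less RNA per cell.

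The SD of the members lay between 0.117 and 0.193 on the log2(FPKM + 1) scale, with a median of 0.17, against a median of 0.46 and a range of 0.19 to 3.81 in the 5358 other genes at 10 FPKM or more. The highest library of a member was 1.32 to 1.99 times its lowest (median 1.61), against a median of 3.43 in the other genes. No member reached a 2-fold range over the 24 libraries, and 362 of the 5358 other genes also stayed under 2-fold. Of the 24643 genes at 1 FPKM or more in 3 or more libraries, another 6 had a lower SD than the last member. These fell under 10 FPKM in at least 1 library. Genes under that level, such as the 10268 at 0 in every library, were not counted here.

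**Figure D1:**
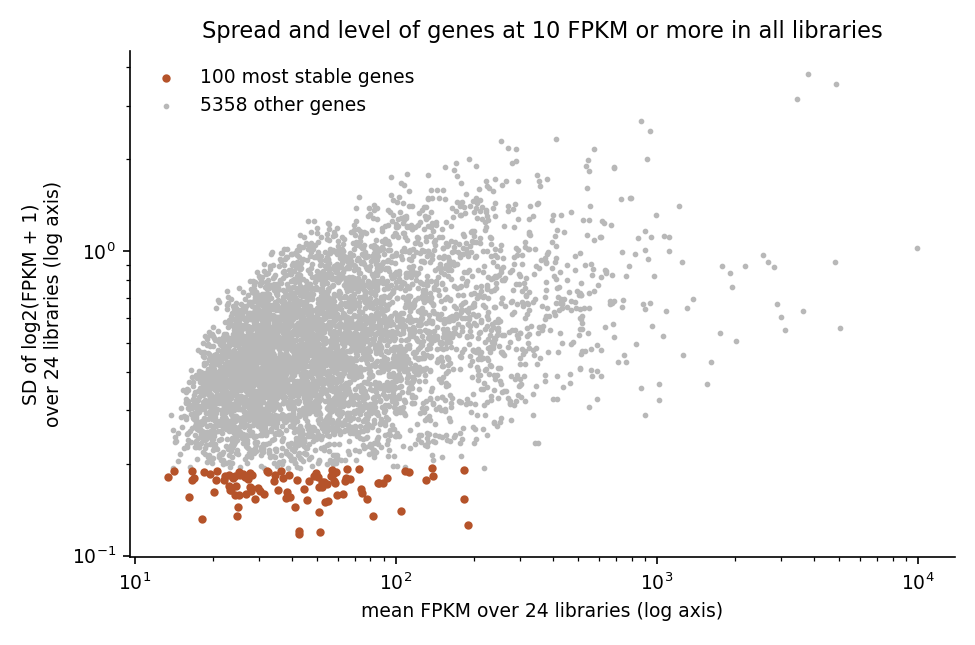
Each point is a gene at 10 FPKM or more in all 24 libraries, with its mean FPKM on the x axis and the SD of log2(FPKM + 1) over the 24 libraries on the y axis, both log axes. The 100 members form the lower edge at an SD of 0.193 or less and lie at means of 13.4 to 189.7 FPKM, while the 5358 other genes reach 9944 FPKM.

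Potri.009G169700.v3.1 had the lowest spread of all (SD 0.117). In P. davidiana it stood at 46.2, 43.7 and 37.8 FPKM at 0 h, 39.3, 46.3 and 49.7 FPKM at 48 h, 38.0, 40.0 and 44.5 FPKM at 96 h and 41.0, 38.7 and 38.3 FPKM at 120 h. In P. yunnanensis it stood at 41.5, 42.2 and 49.96 FPKM at 0 h, 45.6, 43.4 and 46.0 FPKM at 48 h, 41.0, 45.6 and 40.1 FPKM at 96 h and 40.5, 39.1 and 39.9 FPKM at 120 h. The ranges of the species overlapped, and the 120 h libraries were the narrowest within each species. In P. yunnanensis the 120 h libraries all lay below those of 0 h and of 48 h, while in P. davidiana the 120 h and 0 h libraries overlapped.

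Potri.001G359700.v3.1 came next (SD 0.120). Its libraries in P. davidiana gave 43.5, 47.3 and 44.9 FPKM at 0 h, 42.9, 48.6 and 52.7 FPKM at 48 h, 47.5, 56.8 and 52.2 FPKM at 96 h and 53.1, 52.7 and 53.4 FPKM at 120 h. Those in P. yunnanensis gave 54.4, 44.4 and 49.5 FPKM at 0 h, 51.2, 57.6 and 54.0 FPKM at 48 h, 50.1, 51.1 and 55.5 FPKM at 96 h and 53.6, 52.1 and 56.1 FPKM at 120 h. In P. davidiana the 120 h libraries lay above the 0 h libraries without overlap, a log2 change of 0.23, whereas in P. yunnanensis these times overlapped.

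Potri.012G034200.v3.1 (SD 0.120) stood in P. davidiana at 43.8, 48.1 and 42.9 FPKM at 0 h, 35.6, 41.0 and 40.5 FPKM at 48 h, 42.3, 49.9 and 48.1 FPKM at 96 h and 36.6, 43.2 and 45.4 FPKM at 120 h. Its values in P. yunnanensis were 36.1, 44.9 and 44.7 FPKM at 0 h, 39.9, 45.2 and 44.2 FPKM at 48 h, 41.7, 41.5 and 39.9 FPKM at 96 h and 43.4, 43.3 and 43.7 FPKM at 120 h. The lowest value of this gene was a 48 h library of P. davidiana and the highest a 96 h library of the same species, so its largest swing lay within 1 species.

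Potri.011G110900.v3.1 (SD 0.126) was both the fourth by spread and the most abundant member, with a mean of 189.7 FPKM. It reached 189.6, 198 and 180.0 FPKM at 0 h, 161, 173 and 193 FPKM at 48 h, 208, 189 and 190.1 FPKM at 96 h and 236, 195 and 202 FPKM at 120 h in P. davidiana. It reached 196, 173 and 152 FPKM at 0 h, 196, 184 and 188 FPKM at 48 h, 185, 184 and 209.6 FPKM at 96 h and 183, 186 and 202 FPKM at 120 h in P. yunnanensis. Its extremes were a 120 h library of P. davidiana at the top and a 0 h library of P. yunnanensis at the bottom.

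Potri.010G052600.v3.1 (SD 0.132) was the least abundant of the 10 members of lowest spread. In P. davidiana its libraries held 17.6, 17.9 and 20.6 FPKM at 0 h, 17.7, 20.1 and 18.6 FPKM at 48 h, 16.4, 22.0 and 20.1 FPKM at 96 h and 18.0, 18.9 and 17.6 FPKM at 120 h. In P. yunnanensis they held 19.4, 13.7 and 17.5 FPKM at 0 h, 18.2, 17.9 and 16.4 FPKM at 48 h, 16.1, 19.7 and 17.9 FPKM at 96 h and 16.4, 17.9 and 17.1 FPKM at 120 h. Differences between replicates made up 76.2% of its sum of squares, and time within species made up 6.26%, the lowest share of time among the members.

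The next 5 members by spread are given by their lowest, median and highest library of 24. Potri.011G168600.v3.1 (SD 0.135) stood at 69.2, 80.2 and 97.3 FPKM, and Potri.015G008700.v3.1 (SD 0.135) at 19.4, 25.1 and 29.8 FPKM. Potri.013G077900.v3.1 (SD 0.139) stood at 42.4, 50.5 and 61.2 FPKM, Potri.016G004900.v3.1 (SD 0.140) at 79.0, 103 and 124 FPKM and Potri.009G111200.v3.1 (SD 0.144) at 32.2, 41.3 and 46.7 FPKM. The 10 members of lowest spread thus covered levels from that of Potri.010G052600.v3.1, with a mean of 18.1 FPKM, to that of Potri.011G110900.v3.1.

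**Figure D2:**
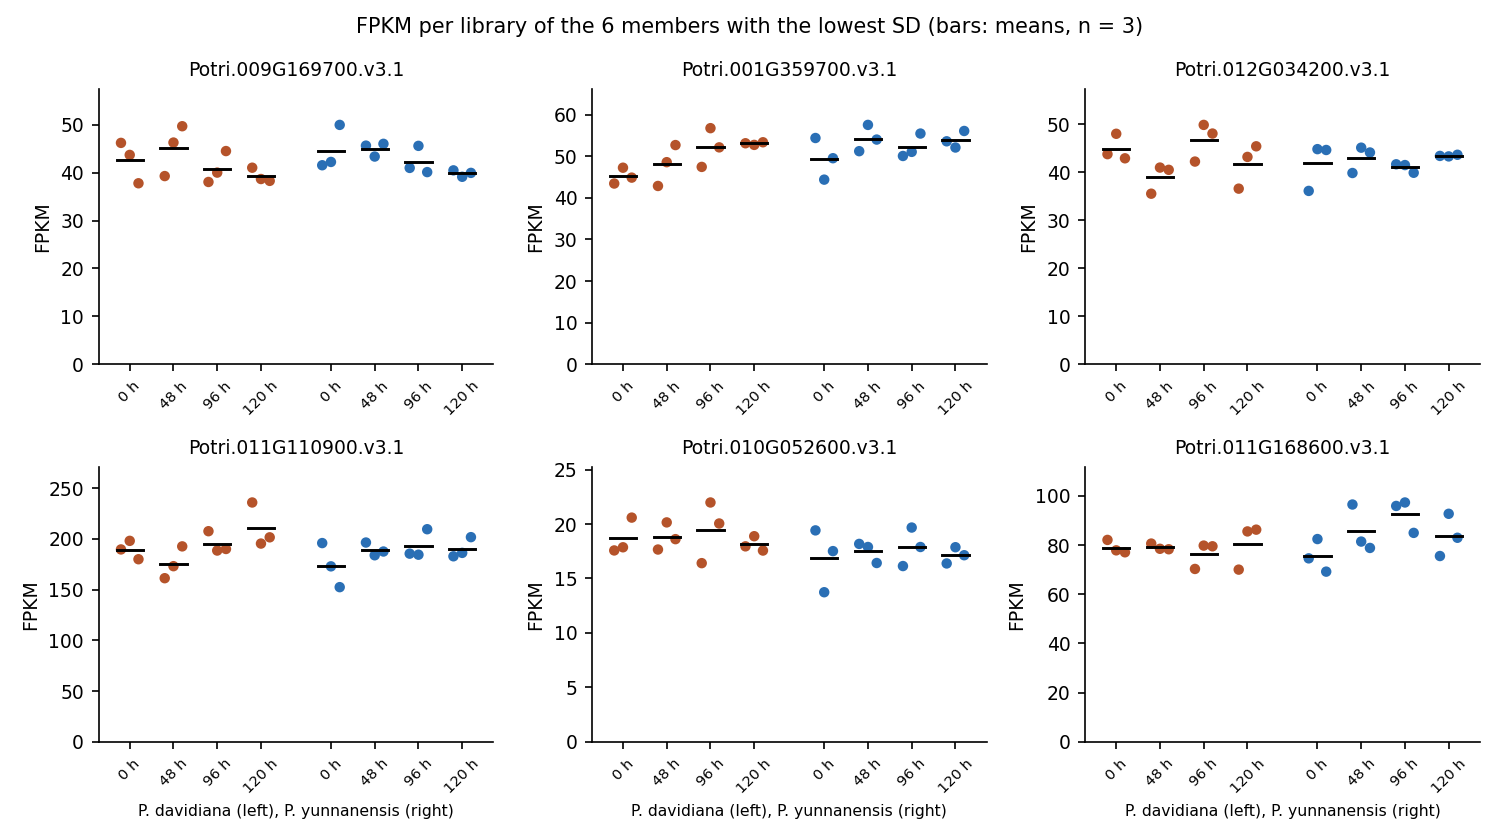
FPKM (y axis, from 0) of the 6 members of lowest spread in each of 24 libraries, by species and time on the x axis, with P. davidiana in brown on the left and P. yunnanensis in blue on the right; points are libraries and bars are means (n = 3). In each panel the points of the 8 groups lie in a band whose highest library is 1.32 to 1.60 times its lowest.

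At the limit of the rule the values changed little. The last members inside it were Potri.013G057000.v3.1 (SD 0.192; 50.8, 63.4 and 93.0 FPKM as lowest, median and highest library), Potri.009G061600.v3.1 (SD 0.193; 54.7, 73.4 and 86.0 FPKM) and Potri.005G093900.v3.1 (SD 0.193; 103, 138 and 169 FPKM). The first genes outside it were Potri.005G171700.v3.1 (SD 0.194; 28.4, 38.9 and 49.1 FPKM), Potri.014G112400.v3.1 (SD 0.194; 180.2, 214 and 311 FPKM) and Potri.017G078800.v3.1 (SD 0.194; 10.4, 13.8 and 19.7 FPKM). The SD of these 6 genes lay between 0.192 and 0.194, so no step in the values marks the limit of 100 genes.

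The members were genes of moderate level. Their mean FPKM had a median of 39.1, against 49.6 in the other genes at 10 FPKM or more. When the 5458 genes were divided by mean level into 5 parts of equal size, 36 members fell in the lowest part (13.4 to 28.3 FPKM) and 7 in the highest (109 FPKM or more), with 15, 26 and 16 in between. The median SD over all genes of a part was 0.36 in the lowest, then 0.44, 0.46 and 0.51, and 0.64 in the highest. After Potri.011G110900.v3.1 the most abundant members were Potri.001G370400.v3.1 (149.9, 183 and 233 FPKM as lowest, median and highest library), Potri.016G066400.v3.1 (119.9, 187 and 239 FPKM), Potri.003G069000.v3.1 (103, 132 and 169 FPKM) and Potri.005G093900.v3.1, which stood at the limit. The least abundant were Potri.014G118500.v3.1 (10.2, 13.0 and 18.4 FPKM), Potri.003G190900.v3.1 (10.6, 14.3 and 18.8 FPKM), Potri.017G041300.v3.1 (13.2, 16.3 and 19.3 FPKM), Potri.009G152500.v3.1 (13.5, 16.01 and 21.4 FPKM) and Potri.010G253100.v3.1 (13.6, 16.6 and 20.9 FPKM).

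As raw sums of squares, replicates held a larger part of the members' spread than species did. Within groups the median SD of a member was 0.14 on the log2 scale, against 0.28 in the other genes. Replicates made up a median of 47.1% of a member's sum of squares, time within species 38.6% and species 10.01%, against 28.0%, 33.0% and 28.9% in the other genes. The replicate share was the largest of the 3 in 59 members, time in 35 and species in 6. In the other genes species was the largest in 40.4%, time in 35.8% and replicates in 23.8%. These shares are parts of the measure that chose the members. They were not divided by their degrees of freedom, of which replicates had 16 and time and species fewer. The order of the shares within a gene set therefore follows in part from the design, and nothing is read from it.

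Together the members took up a small and narrow part of each library. Their FPKM summed to 4963 ± 74.2 in P. davidiana at 0 h, 4986 ± 114 at 48 h, 4965 ± 133 at 96 h and 4984 ± 24.3 at 120 h (mean ± SD over 3 libraries). In P. yunnanensis the sum was 4745 ± 32.0 at 0 h, 5028 ± 134 at 48 h, 5156 ± 51.2 at 96 h and 5246 ± 149 at 120 h (n = 3 each, SD). As a share of all FPKM in a library this was highest in P. yunnanensis 120 h replicate 2 (0.731%) and lowest in P. yunnanensis 0 h replicate 2 (0.599%). The sum was flat over time in P. davidiana, while in P. yunnanensis the 3 libraries at 120 h (5077, 5356 and 5306 FPKM) all lay above the 3 at 0 h (4780, 4737 and 4718 FPKM).

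The libraries of P. yunnanensis at 0 h stood apart for the 5358 other genes at 10 FPKM or more. The median deviation of the members from their own means was 0.056, 0.096 and 0.093 on the log2 scale in replicates 1, 2 and 3 at 120 h in P. yunnanensis, and -0.026, -0.093 and -0.051 at 0 h. That of the 5358 other genes was 0.066, 0.027 and 0.081 at 120 h and -0.17, -0.34 and -0.20 at 0 h. Over the 18342 genes above 0 in every library the group did not stand apart. There the log2 median ratio factors of its replicates 1, 2 and 3 at 0 h were -0.16, -0.44 and -0.016. That of P. davidiana 48 h replicate 2 was -0.33. In P. davidiana the members stayed between -0.064 and 0.040 in all 12 libraries, and the other genes between -0.078 and 0.12. The group mean of 28 members was lowest in P. yunnanensis at 0 h, as in 33.8% of the other genes, and that of 23 members was highest in P. yunnanensis at 120 h, as in 17.7% of the others.

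**Figure D3:**
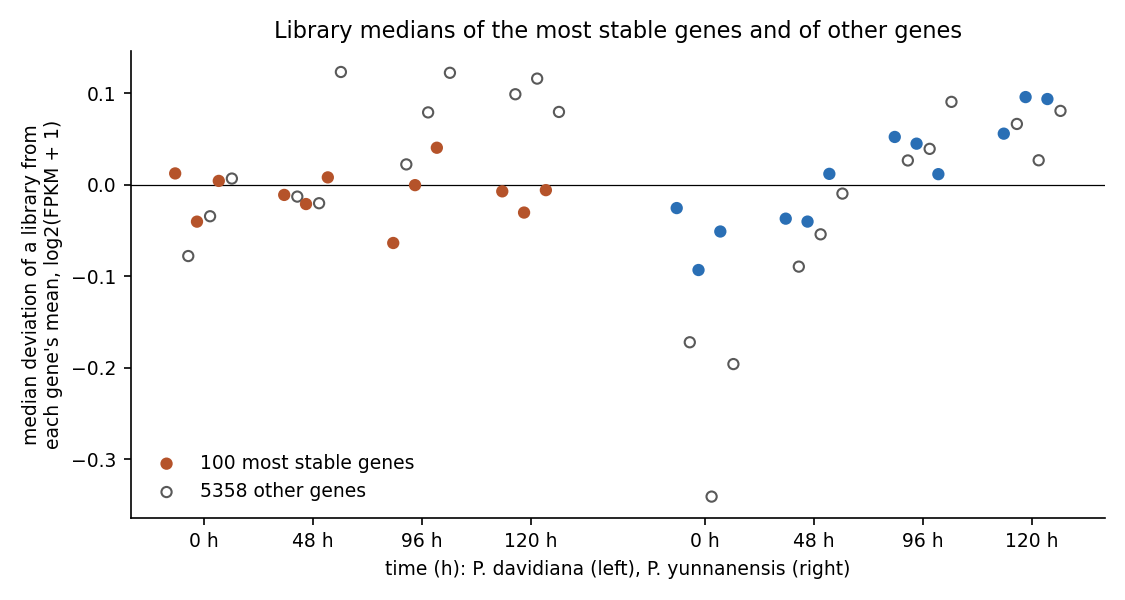
For each of 24 libraries, by species and time on the x axis, the y axis gives the median over genes of the deviation from each gene's mean over all libraries, in log2(FPKM + 1). Filled points are the 100 members (brown for P. davidiana on the left, blue for P. yunnanensis on the right) and open points the 5358 other genes at 10 FPKM or more. In 0 h replicate 2 of P. yunnanensis the members are at -0.093 and the other genes at -0.34.

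Between the species, the mean difference over the 4 times (P. davidiana minus P. yunnanensis) lay between -0.26 and 0.25 on the log2 scale in all members, with a median of -0.0063, against a median of 0.083 in the other genes at 10 FPKM or more and of -0.21 over all 24643 genes tested. No member had its 12 libraries of one species entirely above the 12 of the other, as 14.4% of all genes tested did (5.07% higher and 9.28% lower in P. davidiana). Potri.006G047100.v3.1 had the highest difference (0.25), with 31.7, 37.3 and 45.9 FPKM as lowest, median and highest library in P. davidiana and 27.8, 31.7 and 34.5 FPKM in P. yunnanensis. Potri.006G272900.v3.1 followed at 0.22, with 20.01, 24.6 and 29.0 FPKM in P. davidiana and 19.1, 20.7 and 23.3 FPKM in P. yunnanensis. The upper values of P. davidiana exceeded those of P. yunnanensis in both genes, and the ranges overlapped. Both species were read on the same gene models, and a difference in level cannot be told apart from a difference in mapping. After median ratio scaling the differences were 0.38 in Potri.006G047100.v3.1 and 0.33 in Potri.006G272900.v3.1.

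On the other side, Potri.012G060400.v3.1 had the lowest difference (-0.26), with 27.1, 30.6 and 39.0 FPKM in P. davidiana and 33.8, 37.7 and 42.9 FPKM in P. yunnanensis. Potri.001G326500.v3.1 followed at -0.24, with 19.9, 21.7 and 24.6 FPKM in P. davidiana and 18.3, 26.9 and 29.97 FPKM in P. yunnanensis. These differences were, with median ratio scaling, -0.14 in Potri.012G060400.v3.1 and -0.12 in Potri.001G326500.v3.1. In the fit with limma over all genes, 26 of the 100 members differed between the species at an adjusted p under 0.05, 10 higher and 16 lower in P. davidiana, where 70.0% of all genes tested did. The rule used these libraries, so nothing is read from the lower share. Which direction held more members turned with the scaling of the libraries, at 17 higher and 7 lower after rescaling to TPM, which gives every library the same total, and 27 higher and 0 lower after median ratio scaling.

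Over time in P. davidiana, the log2 change of the members at 120 h against 0 h lay between -0.39 and 0.41, with a median of -0.0042, against a median of 0.13 in the other genes at 10 FPKM or more and of 0.083 over all genes tested. Potri.015G068300.v3.1 had the highest change (0.41), with 30.4, 33.8 and 32.0 FPKM at 120 h and 23.8, 25.1 and 23.0 FPKM at 0 h. Potri.005G093900.v3.1 stood at 169, 151 and 166 FPKM at 120 h and at 107, 139 and 132 FPKM at 0 h, a log2 change of 0.37. In both the 120 h libraries lay above the 0 h libraries without overlap. Potri.001G326700.v3.1 had the lowest change (-0.39), with 21.0, 23.1 and 22.2 FPKM at 120 h and 30.9, 27.5 and 29.3 FPKM at 0 h. Potri.002G221500.v3.1 stood at 111, 99.4 and 108 FPKM at 120 h and at 152, 133 and 132 FPKM at 0 h, a log2 change of -0.38. In this pair the 120 h libraries were the lower ones, again without overlap. After median ratio scaling the changes were 0.25 in Potri.015G068300.v3.1, 0.21 in Potri.005G093900.v3.1, -0.54 in Potri.001G326700.v3.1 and -0.54 in Potri.002G221500.v3.1. Limma called 0 of the 100 members at an adjusted p under 0.05, where 19.8% of all genes tested were called (12.7% higher and 7.04% lower), and 14 members had an unadjusted p under 0.05. Limma on the compared libraries alone called 6 members (2 higher and 4 lower), and after median ratio scaling it called 4, all lower.

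The change of the members at 120 h against 0 h in P. yunnanensis lay between -0.25 and 0.54 on the log2 scale, with a median of 0.14, against a median of 0.30 in the other genes at 10 FPKM or more and of 0.34 over all genes tested. Potri.012G039200.v3.1 had the highest change (0.54), with 134, 122 and 131 FPKM at 120 h and 76.6, 101 and 88.2 FPKM at 0 h. Potri.008G065300.v3.1 stood at 72.9, 68.3 and 77.3 FPKM at 120 h and at 48.6, 50.6 and 53.6 FPKM at 0 h, a log2 change of 0.51. The 120 h libraries lay above those of 0 h without overlap in both, though after median ratio scaling the changes were 0.074 and 0.041. Potri.012G058100.v3.1 had the lowest change (-0.25), with 33.8, 37.4 and 36.8 FPKM at 120 h and 42.2, 46.5 and 40.0 FPKM at 0 h. Potri.011G092700.v3.1 stood at 36.4, 43.6 and 45.3 FPKM at 120 h and at 42.5, 53.7 and 50.9 FPKM at 0 h, a log2 change of -0.23. Only the first of these was without overlap between the times. Their changes with median ratio scaling were -0.71 in Potri.012G058100.v3.1 and -0.69 in Potri.011G092700.v3.1.

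Limma called 9 members in P. yunnanensis at 120 h against 0 h at an adjusted p under 0.05, all of them higher, where 36.1% of all genes tested were called (27.6% higher and 8.47% lower). The direction depended on the scaling. Rescaling to TPM gave 15 calls, all higher, and median ratio scaling gave 16, all lower. Limma on the compared libraries alone called 0 members, with 5 at an unadjusted p under 0.05. Leaving out replicate 1 or replicate 2 of 120 h, or replicate 2 of 0 h, gave 4 calls each, and leaving out replicate 3 of 120 h gave 5.

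By whether libraries overlapped, 29 members were apart between 120 h and 0 h in P. davidiana (14 higher and 15 lower at 120 h), where 40.5% of all genes tested were (24.8% higher and 15.7% lower). In P. yunnanensis 28 members were apart (24 higher and 4 lower), where 40.0% of all genes tested were (31.0% higher and 9.01% lower). In 7 members the libraries of both species moved without overlap in the same direction, 6 upwards, where 11.1% of all genes tested did, and 1 downwards (Potri.012G058100.v3.1), where 3.1% did. In 2 members they moved without overlap in opposite directions, as in 3.16% of all genes tested. These directions turned with the scaling, which was looked at after seeing the data. After median ratio scaling 1 member was higher and 31 lower without overlap in P. davidiana, 0 higher and 34 lower in P. yunnanensis, and 0 higher and 12 lower in both. After rescaling to TPM the counts were 13 higher and 20 lower in P. davidiana, 36 higher and 1 lower in P. yunnanensis, and 7 higher and 1 lower in both. In P. davidiana Potri.012G058100.v3.1 stood at 36.8, 33.4 and 36.7 FPKM at 120 h and at 47.8, 42.9 and 41.3 FPKM at 0 h.

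Choosing genes in one species and reading them in the other used libraries that took no part in the choice. The rule applied to the 12 P. yunnanensis libraries alone gave 100 genes, of which 88 stood at 10 FPKM or more in all P. davidiana libraries. In P. davidiana these 88 had a median SD of 0.20 against 0.33 in the other genes, their median rank lay at percentile 13.8 among 7064 genes, 35 of them fell in the lowest 10% and 7 above the median rank. In the opposite direction, 94 of the 100 genes chosen in P. davidiana could be read in P. yunnanensis. They had a median SD of 0.24 against 0.38 and a median rank at percentile 15.4 among 6800 genes, with 35 in the lowest 10% and 11 above the median rank.

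The lists themselves shared few genes. Of the 100 genes chosen in each species 8 were common to both, and 5 of these were members, Potri.004G081800.v3.1, Potri.010G052600.v3.1, Potri.015G008700.v3.1, Potri.016G004900.v3.1 and Potri.016G043500.v3.1. The list of P. yunnanensis held 31 of the 100 members and that of P. davidiana 22. Potri.016G043500.v3.1, named here for this overlap after its values were seen, stood in P. davidiana at 22.3, 24.1 and 23.3 FPKM at 0 h, 20.5, 23.6 and 24.3 FPKM at 48 h, 20.6, 23.8 and 22.0 FPKM at 96 h and 22.9, 25.6 and 22.4 FPKM at 120 h. In P. yunnanensis this gene stood at 28.9, 30.1 and 25.4 FPKM at 0 h, 27.8, 28.1 and 26.0 FPKM at 48 h, 27.5, 27.3 and 26.3 FPKM at 96 h and 23.2, 27.0 and 25.4 FPKM at 120 h. It was steady in each species at a slightly different level, with a P. davidiana minus P. yunnanensis difference of -0.22 on the log2 scale.

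A group left out of the choice gave another reading of this kind. For each of the 8 groups, 100 genes were chosen by the same rule in the other 21 libraries, and the group mean was compared with the mean of those 21. In P. davidiana the median absolute deviation of the chosen genes was 0.18 at 0 h, 0.14 at 48 h, 0.098 at 96 h and 0.15 at 120 h, against 0.39, 0.36, 0.30 and 0.33 in the genes not chosen. In P. yunnanensis it was 0.22 at 0 h, 0.12 at 48 h, 0.10 at 96 h and 0.14 at 120 h, against 0.46, 0.32, 0.31 and 0.36. In all 8 groups the chosen genes lay closer to the other libraries than the genes not chosen.

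The chosen genes deviated most in P. yunnanensis at 0 h. There 54 of the 100 chosen genes stayed within 0.25 on the log2 scale, against 27.2% of the genes not chosen, and the list chosen without it held 57 of the 100 members. At 96 h, 93 of the 100 chosen genes stayed within that limit in P. davidiana, against 43.2% of the genes not chosen, and 93 did in P. yunnanensis, against 42.0%. Only 1 of the chosen genes deviated by more than 1 in any group, Potri.013G123500.v3.1, which is no member and stood 1.19 above its mean elsewhere in P. davidiana at 0 h. There 13.2% of the genes not chosen deviated by more than 1.

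**Figure D4:**
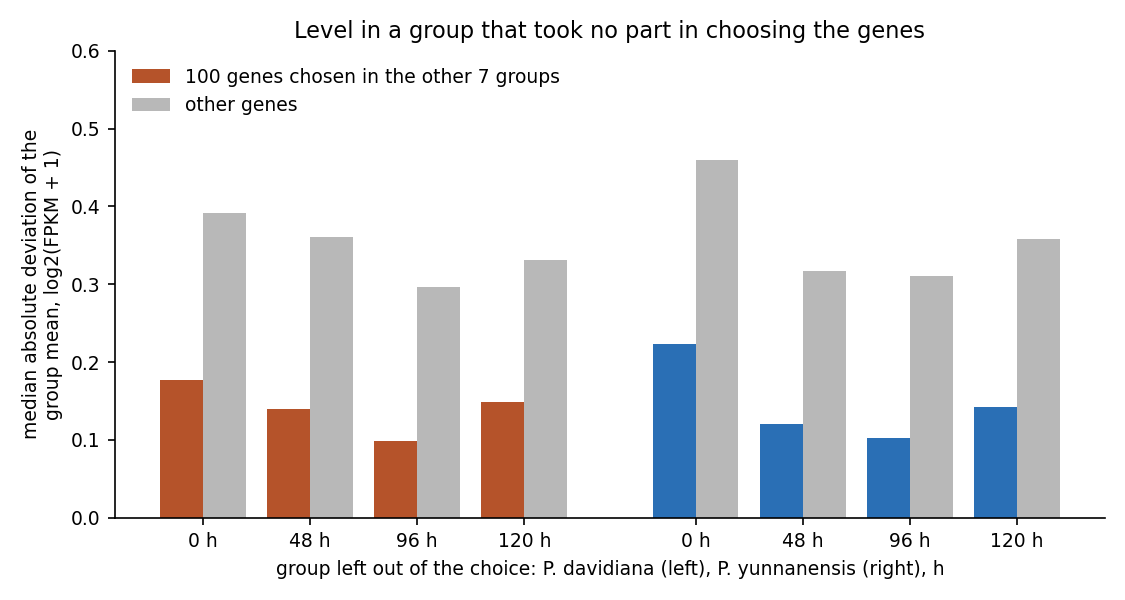
Bars, from 0, give the median absolute deviation of a group mean from the mean of the other 21 libraries in log2(FPKM + 1), for each group left out of the choice on the x axis. Coloured bars are the 100 genes chosen in the other 7 groups (brown for P. davidiana on the left, blue for P. yunnanensis on the right) and grey bars the genes not chosen; the coloured bars run from 0.098 to 0.22 and the grey ones from 0.30 to 0.46.

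Which genes are steadiest depended on how the libraries were put on one scale. After median ratio scaling over the 18342 genes above 0 in every library, 19 of the 100 members were among the 100 genes of lowest SD. The factors of that scaling ran from -0.44 in P. yunnanensis 0 h replicate 2 to 0.39 in P. yunnanensis 96 h replicate 3 on the log2 scale. On it the members had a median SD of 0.24 against 0.47 in the other genes, and 76 of them were in the lowest 10% of 5458. These SDs come from the libraries that the rule used, so they are a description. Median ratio scaling over the 5458 genes alone kept 54 members and rescaling to TPM kept 82.

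Ratios between genes within a library are free of any scaling. By the mean SD of the log2 ratio to all the other 5458 genes, the members lay between percentiles 0.018 and 9.66, with a median of 1.60, and 56 of them were among the 100 lowest. The SD of the log2 ratio between 2 members had a median of 0.24 over 4950 pairs, against 0.70 over all pairs of the 5458 genes. The rule chose the members for a low SD in these same libraries, so these ratio values are a description and no separate support. The pair with the steadiest ratio was Potri.014G132300.v3.1 and Potri.006G120200.v3.1, picked out as the lowest of the 4950 after the values were seen. The first stood at 1.30 to 1.65 times the FPKM of the second in the 24 libraries, with a median of 1.49 and an SD of 0.095 on the log2 scale.

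Other settings moved the list in different measure. The coefficient of variation of FPKM kept 93 members, a pseudocount of 0.1 kept 97, and leaving out any 1 library kept 82 to 99, with 76 members kept in each of these 24 choices. The SD over the 8 group means, which lessens the part of the spread between replicates, kept 54. Leaving out the 3 libraries of P. yunnanensis at 0 h kept 57. A set of 2 members, Potri.016G004900.v3.1 and Potri.004G081800.v3.1, was among the 100 lowest in all 12 settings other than single libraries, counted after the settings were run.

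**Figure D5:**
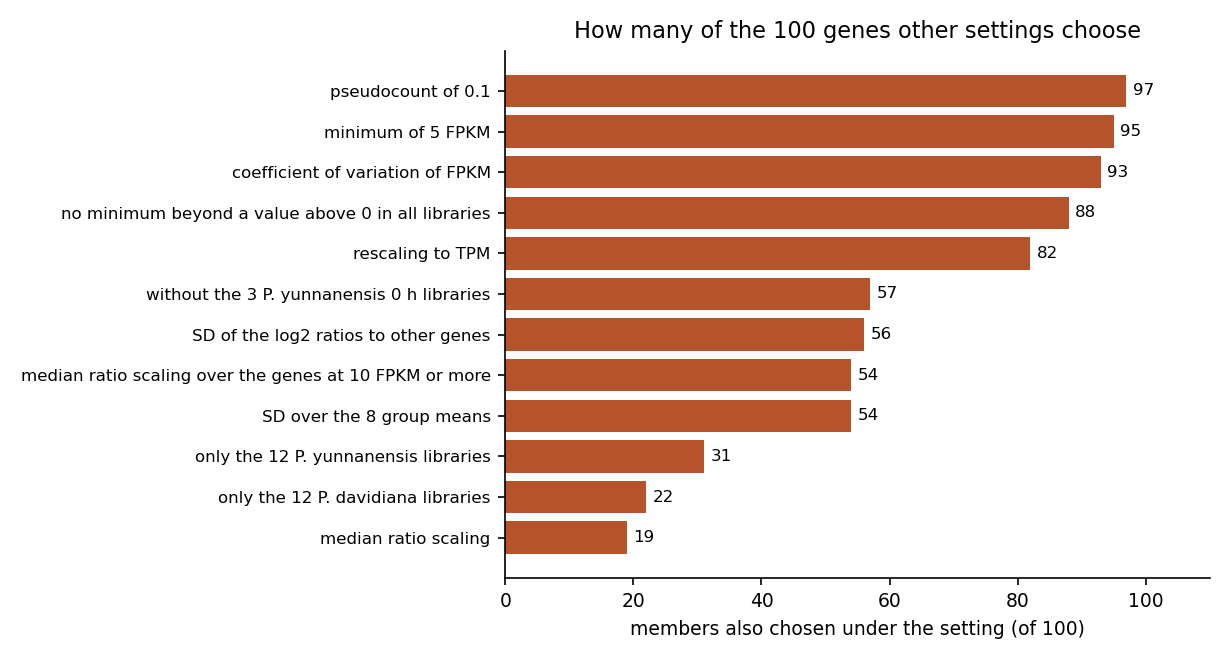
The x axis, from 0, counts how many of the 100 members are also chosen under each other setting on the y axis. Bars run from 19 under median ratio scaling to 97 with a pseudocount of 0.1.

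This pair was kept under every one of those settings, yet on the values as deposited limma called both genes lower in P. davidiana than in P. yunnanensis. The mean species difference was -0.16 in Potri.016G004900.v3.1 (limma adjusted p 0.031) and -0.17 in Potri.004G081800.v3.1 (limma adjusted p 0.027). The rule used these libraries, so these calls are a description. After median ratio scaling limma called 0 members lower in P. davidiana, so neither call held under that setting. Potri.016G004900.v3.1 stood in P. davidiana at 95.3, 95.0 and 102 FPKM at 0 h, 101, 79.0 and 95.4 FPKM at 48 h, 99.9, 105 and 103 FPKM at 96 h and 100.2, 99.7 and 110.1 FPKM at 120 h. Its libraries in P. yunnanensis stood at 105, 96.5 and 120.0 FPKM at 0 h, 102, 106 and 118 FPKM at 48 h, 111, 102 and 109 FPKM at 96 h and 116, 119.7 and 124 FPKM at 120 h. It was lowest in a 48 h library of P. davidiana and highest in a 120 h library of P. yunnanensis, 1.57 times apart.

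Potri.004G081800.v3.1 (SD 0.150) stood in P. davidiana at 54.3, 42.7 and 44.0 FPKM at 0 h, 56.4, 50.2 and 54.0 FPKM at 48 h, 50.5, 53.4 and 52.5 FPKM at 96 h and 51.8, 49.3 and 48.1 FPKM at 120 h. In P. yunnanensis it stood at 61.4, 49.4 and 56.2 FPKM at 0 h, 49.95, 53.5 and 51.1 FPKM at 48 h, 63.2, 60.3 and 53.3 FPKM at 96 h and 63.0, 62.5 and 59.9 FPKM at 120 h. Its lowest value was 0 h replicate 2 of P. davidiana and its highest 96 h replicate 1 of P. yunnanensis, and the libraries of the species overlapped.

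The members were scattered over the genome as far as their identifiers tell. The chromosome number that an identifier carries was present in 99 members, and Potri.T077700.v3.1 lies on an unplaced scaffold. Chromosomes 1, 5 and 6 held 9 members each and chromosome 10 held 8, of 647, 359, 469 and 375 genes at 10 FPKM or more. Chromosome 11 had the highest share, at 7 of 167 genes (4.19%), and chromosome 18 held 0 of 206, where the share over all 5458 genes was 1.83%. None of the 16 assembled loci at 10 FPKM or more was a member.

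Few members were neighbours. Only Potri.007G070000.v3.1 and Potri.007G070100.v3.1 carried consecutive numbers, and whether they overlap or share fragments was not analysed here. Potri.007G070000.v3.1 had 18.9, 22.2 and 25.5 FPKM as lowest, median and highest library in P. davidiana and 15.0, 19.7 and 24.3 FPKM in P. yunnanensis. Potri.007G070100.v3.1 had 28.9, 33.4 and 40.3 FPKM in P. davidiana and 33.0, 36.2 and 46.8 FPKM in P. yunnanensis. Their log2 ratio had an SD of 0.31, above the 0.24 of the median pair of members. Potri.001G326500.v3.1 and Potri.001G326700.v3.1, with 1 number left between them, are the genes given above with the second lowest species difference and the lowest 120 h change in P. davidiana.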

How the data were processed

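Expression was measured by RNA sequencing on an Illumina platform, per the labels' protocols, in stems of cuttings. The authors deposited 1 FPKM value per gene and library, per the file headers, with the aligner, counter, annotation and build not given in the sources used here. Its scale rests on gene length and on the library's fragment total, which lets a few abundant genes shift the rest, and no counting interval can be given. Each library was grouped by its title, and no column was left unassigned. The values of both species were given on the same gene models. How well the fragments of each species map to these models was not tested.

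The members and the lists were chosen with earlier results of these data known. Levels, SDs and shares of the sum of squares (species, time within species, replicates) were computed from log2(FPKM + 1) with numpy 2.4.6 and pandas 2.3.3 under Python 3.11.15; matplotlib 3.10.9 drew the figures. For calls, the 24643 genes reaching 1 FPKM in 3 or more libraries were fitted with limma 3.58.1 in R 4.3.3, with 1 mean per species and time, a variance trend and 16 residual degrees of freedom. Benjamini-Hochberg adjustment ran over all of these genes within each of 3 comparisons. Both steps were tested on simulated data. The readings in a group left out of the choice and the ratio measure were added after seeing the data.

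Genes named are the 10 of lowest SD, 3 on either side of the limit, the 5 most and 5 least abundant, and those with the highest and lowest species difference (3 each by the rule) and 120 h change (2 each). As the files pair no names with identifiers, at most 2 in each direction are printed for a difference. The family and tissue marker lists could not be matched to identifiers and were not analysed here.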

Additional observations from a re-analysis of the deposited data

Results flagged for a closer look

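A pair of members moved in opposite directions in the species between 0 and 120 h, with no overlap between the libraries of the times in either species. This difference between the species was not tested, since the rule that chose the members used these libraries, and 3.16% of all genes tested show such a pattern. Potri.006G047100.v3.1 stood in P. davidiana at 31.7, 36.8 and 34.4 FPKM at 120 h and at 42.6, 42.1 and 41.1 FPKM at 0 h, a log2 change of -0.29. In P. yunnanensis it stood at 31.8, 34.5 and 34.2 FPKM at 120 h and at 29.9, 28.8 and 30.7 FPKM at 0 h, a log2 change of 0.16. Subtracting the change in P. yunnanensis gave -0.45. Limma called neither change (limma adjusted p 0.15 in P. davidiana and 0.36 in P. yunnanensis).

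Potri.013G046300.v3.1 stood in P. davidiana at 29.8, 30.03 and 29.3 FPKM at 120 h and at 35.8, 35.0 and 34.7 FPKM at 0 h, a log2 change of -0.24. In P. yunnanensis it stood at 41.3, 44.2 and 43.6 FPKM at 120 h and at 27.2, 37.7 and 39.0 FPKM at 0 h, a log2 change of 0.32. Its changes differed by -0.56, and limma called neither of them (limma adjusted p 0.28 in P. davidiana and 0.084 in P. yunnanensis). Rescaling to TPM left both pairs of directions as they were, at -0.32 in P. davidiana and 0.22 in P. yunnanensis for the first gene and at -0.27 and 0.39 for the second. After median ratio scaling both genes were lower at 120 h in both species, at -0.44 in P. davidiana and -0.30 in P. yunnanensis for the first gene and at -0.39 and -0.14 for the second.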

How the results depend on the processing

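Of the 100 members, 19 were chosen again under median ratio scaling, 54 with that scaling (chosen, like the next setting and the last, after seeing the data) over the genes at 10 FPKM or more, 56 by log2 ratios to other genes, 54 by the SD over group means, 31 in P. yunnanensis alone, 22 in P. davidiana alone and 57 without the 3 P. yunnanensis 0 h libraries; the other 5 settings kept 82 to 97, and leaving out 1 library kept 82 to 99. The median percentile in P. davidiana of genes chosen in P. yunnanensis (13.8) was 12.2 with a minimum of 5 FPKM, 11.4 with median ratio scaling, 14.7 with TPM and 12.9 to 15.6 without 1 library. That in P. yunnanensis of genes chosen in P. davidiana (15.4) was 13.4 with 5 FPKM, 12.9 with TPM and 14.0 to 17.6 without 1 library. The median species difference of the members (-0.0063) was 0.11 with median ratio scaling, 0.040 with TPM and -0.087 with scaling over the genes at 10 FPKM or more. Their median 120 h change in P. davidiana (-0.0042) was -0.16, -0.036 and -0.13 in that order, and in P. yunnanensis (0.14) it was -0.32, 0.20 and -0.15, so its sign turned with both median ratio scalings; the cause of these shifts was not tested. Limma calls between the species (26 members) ranged from 20 to 26 without 1 library. In P. yunnanensis at 120 h (9 members) they numbered 16 with median ratio scaling, 15 with TPM, 0 with only the compared groups (5 at an unadjusted p under 0.05) and 4 to 9 without 1 library. In P. davidiana (0 members) limma called 1 with a pseudocount of 0.1, 2 with no filter, 4 with median ratio scaling, 1 with TPM, 6 with only the compared groups and 0 to 2 without 1 library. With the replicate number as a block the calls were 23, 9 and 0. Same-numbered libraries did not deviate together in every pair (correlations of -0.25 to 0.28), and what a number marks is not labelled, so the numbers were not taken to pair the libraries. The SD of 37 named genes moved by more than their within-group SD in 7 genes under median ratio scaling and in 0 under TPM or a pseudocount of 0.1. In a group left out, no median absolute deviation moved by more than the spread between replicates under those 3 settings. That spread was the median SD of a member over the replicates of the group. It is a wide limit beside deviations of 0.098 to 0.22, so little can be read from it. The number of fragments is unknown, so the part of sampling noise in the spread of members near 10 FPKM was not measured.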
